A study of Rattus norvegicus with 24 samples.

Results

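The genes described here move serine and glycine across membranes, make them, interconvert them or break down D-serine, and 1 encodes a scaffold of the enzyme that makes D-serine. They were the 10 genes Slc7a10, Slc1a4, Slc6a9, Dao, Phgdh, Psat1, Psph, Shmt1, Shmt2 and Pick1, taken with every probe set whose only gene symbol on the platform was one of them. This gave 12 of 31099 probe sets on the array, and 10 of the 14217 genes with a probe set of their own. Slc6a9 had 3 probe sets and the other genes 1 each. The rats were adult male F344 rats, 11 to 12 weeks old, each given D-serine or vehicle once and killed 96 h later, and total RNA came from a piece of about 30 mg of tissue labelled as forebrain. The 6 groups were vehicle, 5, 20, 50, 200 and 500 mg/kg D-serine, with 4 rats and 4 Affymetrix rat arrays in each, 24 in all. Each array came from a different animal.

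D-serine is the mirror-image form of the amino acid L-serine and, in forebrain, a co-agonist that the NMDA receptor needs beside glutamate. Serine racemase makes it from L-serine, which astrocytes largely produce from a glycolytic intermediate through the enzymes encoded by Phgdh, Psat1 and Psph. Membrane carriers move D-serine and glycine between glia, neurons and the synaptic cleft, and D-amino acid oxidase, encoded by Dao, degrades D-serine, in rodent brain chiefly in the glia of cerebellum and brainstem.

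Levels are given as log2 of the quantile-normalised intensity plus 16, and differences and their standard errors (SE) are on that scale, which understates the change of dim probe sets. Levels of different probe sets cannot be set against each other. A gene is said to have passed the test where limma's p, adjusted by the Benjamini-Hochberg method over all 18625 probe sets tested, was under 0.05. In tissue RNA, fewer cells of a type and less RNA per cell cannot be told apart.

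The tissue label was checked against marker genes, and 1 array did not read like forebrain. In the array of 500 mg/kg replicate 4 the mean level of the cerebellar markers was 10.28, against 6.34 to 6.88 on the other 23 arrays, and that of the forebrain neuron markers was 7.36, against 9.24 to 9.84. Values without that array are therefore given beside several of the results that it moved. Array medians of the deposited intensity lay between 56 and 103.8. RNA quality was read from the Gapdh control probe sets, as the log2 ratio of their 3′ signal to their 5′ signal. It averaged 0.83 ± 0.06 in vehicle rats, 0.19 ± 0.07, 0.18 ± 0.04 and 0.34 ± 0.17 at 5, 20 and 50 mg/kg, and 0.60 ± 0.21 and 0.75 ± 0.14 at 200 and 500 mg/kg (SD, n = 4 each). The ratio at each of the 3 lower doses was below that in vehicle rats without overlap (two-sided exact permutation p = 0.0286, adjusted p = 0.0476, where 4 against 4 arrays allow no smaller p than this). By the same test the beta-actin ratio was lower at these doses (1.69, 1.60 and 1.87, against 2.56 in vehicle rats, adjusted p = 0.0476 at each). The hexokinase ratio was 1.69, 1.77 and 2.23 there, against 2.25 in vehicle rats, and did not pass (adjusted p from 0.357 to 0.971). The part of the Gapdh ratio in the differences below between those 3 doses and the other groups was not tested beyond a fit that takes it as a covariate. Since that ratio at those doses did not overlap that in vehicle rats, the fit cannot tell the ratio from the dose. Animal numbers in the labels run in the order vehicle, 500, 200, 50, 20 and 5 mg/kg, so an order of handling and the dose cannot be told apart.

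The stretch upstream of the gene's start is shown for Dao and Pick1, among the members that stood out below, and for Slc1a4, chosen for the letters in its window. The sequences are the 250 bases before the start in RefSeq, build GRCr8, written 5′ to 3′ on the gene's strand, and all 10 members had one. Dao, whose signal was read on a single array, lies on chromosome 12, and its window is chr12:48273301-48273550 on the minus strand, with the CG dinucleotides in capitals.
Dao: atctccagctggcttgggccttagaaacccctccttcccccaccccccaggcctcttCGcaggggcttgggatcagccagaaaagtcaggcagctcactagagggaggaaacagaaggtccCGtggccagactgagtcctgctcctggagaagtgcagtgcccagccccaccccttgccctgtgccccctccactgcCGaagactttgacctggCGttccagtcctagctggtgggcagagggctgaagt
Pick1, the only member to pass a test against vehicle, and Slc1a4 were the 2 members whose windows held the letters TGATGNAA on either strand, the core of the site that the amino acid response factor ATF4 binds with its partners. The match is in capitals and lies on the strand opposite to the gene in both. The Pick1 window is chr7:112677295-112677544 on the plus strand, with the first base of the match 123 bases before the start. The Slc1a4 window is chr14:98761563-98761812 on the minus strand, with the first base of the match 235 bases before the start.
Pick1: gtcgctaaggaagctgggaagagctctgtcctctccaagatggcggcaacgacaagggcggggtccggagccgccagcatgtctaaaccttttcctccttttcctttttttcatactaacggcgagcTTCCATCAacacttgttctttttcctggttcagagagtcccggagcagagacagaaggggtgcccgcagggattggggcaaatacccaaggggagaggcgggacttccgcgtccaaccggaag
Slc1a4: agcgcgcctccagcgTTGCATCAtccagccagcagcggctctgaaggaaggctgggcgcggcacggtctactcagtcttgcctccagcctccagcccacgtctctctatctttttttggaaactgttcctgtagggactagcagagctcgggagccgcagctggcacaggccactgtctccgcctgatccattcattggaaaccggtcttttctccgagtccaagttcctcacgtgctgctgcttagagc
The same letters stood in 1139 of all 33469 such windows in RefSeq, or 3.403%. The Dao window held 4 CG dinucleotides, against a median of 12.5 over the 10 members and of 5 over all windows. Median GC content was 58.4% in the members' windows and 51.2% in all. A match describes the letters of the window only.

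With the exception of Pick1 at 20 mg/kg, no serine or glycine gene that could be tested passed the test against vehicle at any dose. Of the 12 probe sets, 10 passed the filter on low values and could be tested, which covered 8 genes, while those of Dao and Shmt1 did not. In limma, 0 of these 10 passed at 5 mg/kg, where 5.52% of all probe sets did, 1 of 10 at 20 mg/kg, where 8.48% did, 0 at 50 mg/kg, where 0.864% did, 0 at 200 mg/kg, where 0% did, and 0 at 500 mg/kg, where 0.00537% did. Without adjustment, 0, 1, 0, 1 and 0 of the 10 had a p under 0.05 at 5, 20, 50, 200 and 500 mg/kg, against 18.9%, 21.8%, 12.9%, 5.3% and 6.9% of all probe sets. Without 500 mg/kg replicate 4 these counts were 1, 2, 0, 1 and 1 of the 10, with Slc7a10 added at 5 mg/kg, Slc6a9 at 20 mg/kg and Shmt2 at 500 mg/kg, against 23%, 26%, 16.6%, 7.24% and 6.09% of all. The single call was Pick1 at 20 mg/kg, and a share of 1 in 10 is near the share of all probe sets called at that dose.

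The 10 probe sets gave 50 differences from vehicle over the 5 doses, of which 36 were negative and 14 positive. The 5 comparisons share the 4 vehicle arrays, so these signs are not independent. Every one of the 50 95% intervals lay between -0.97 and 0.87, that is between 0.51 and 1.83 times the vehicle level, and 27 of them lay within 0.5 of 0 on both sides. The median SE of the members was 0.17, against 0.14 over all probe sets. The median difference of the 10 probe sets was -0.07, -0.15, -0.03, -0.06 and -0.08 at 5, 20, 50, 200 and 500 mg/kg, and the median of all probe sets lay within 0.01 of 0 in each comparison. Without 500 mg/kg replicate 4 the members' median at 500 mg/kg was -0.13, against 0.01 for all. The median size of a difference, whatever its sign, was 0.16 for the members and 0.15 for all probe sets at 20 mg/kg.

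A test of any difference among the 6 groups called 0 of the 10 probe sets, where 5.93% of all passed, and the smallest adjusted p was 0.378, for Pick1. The slope over dose rank called 0 of the 10, where 0% of all passed, with a smallest adjusted p of 0.832, for Slc7a10. Unadjusted, 0 and 0 of the 10 had a p under 0.05 in these tests, against 18.6% and 5.73% of all. The mean of the 5, 20 and 50 mg/kg groups against that of the 200 and 500 mg/kg groups, a comparison without vehicle arrays, called 0 of the 10, where 10.2% of all passed. There the median size of a difference was 0.05 for the members and 0.11 for all probe sets, and 1 of the 10, Slc7a10, had an unadjusted p under 0.05, against 25.4% of all. Without 500 mg/kg replicate 4 those median sizes were 0.08 and 0.10, and 0 of the 10 had such a p, against 23% of all.

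**Figure D1:**
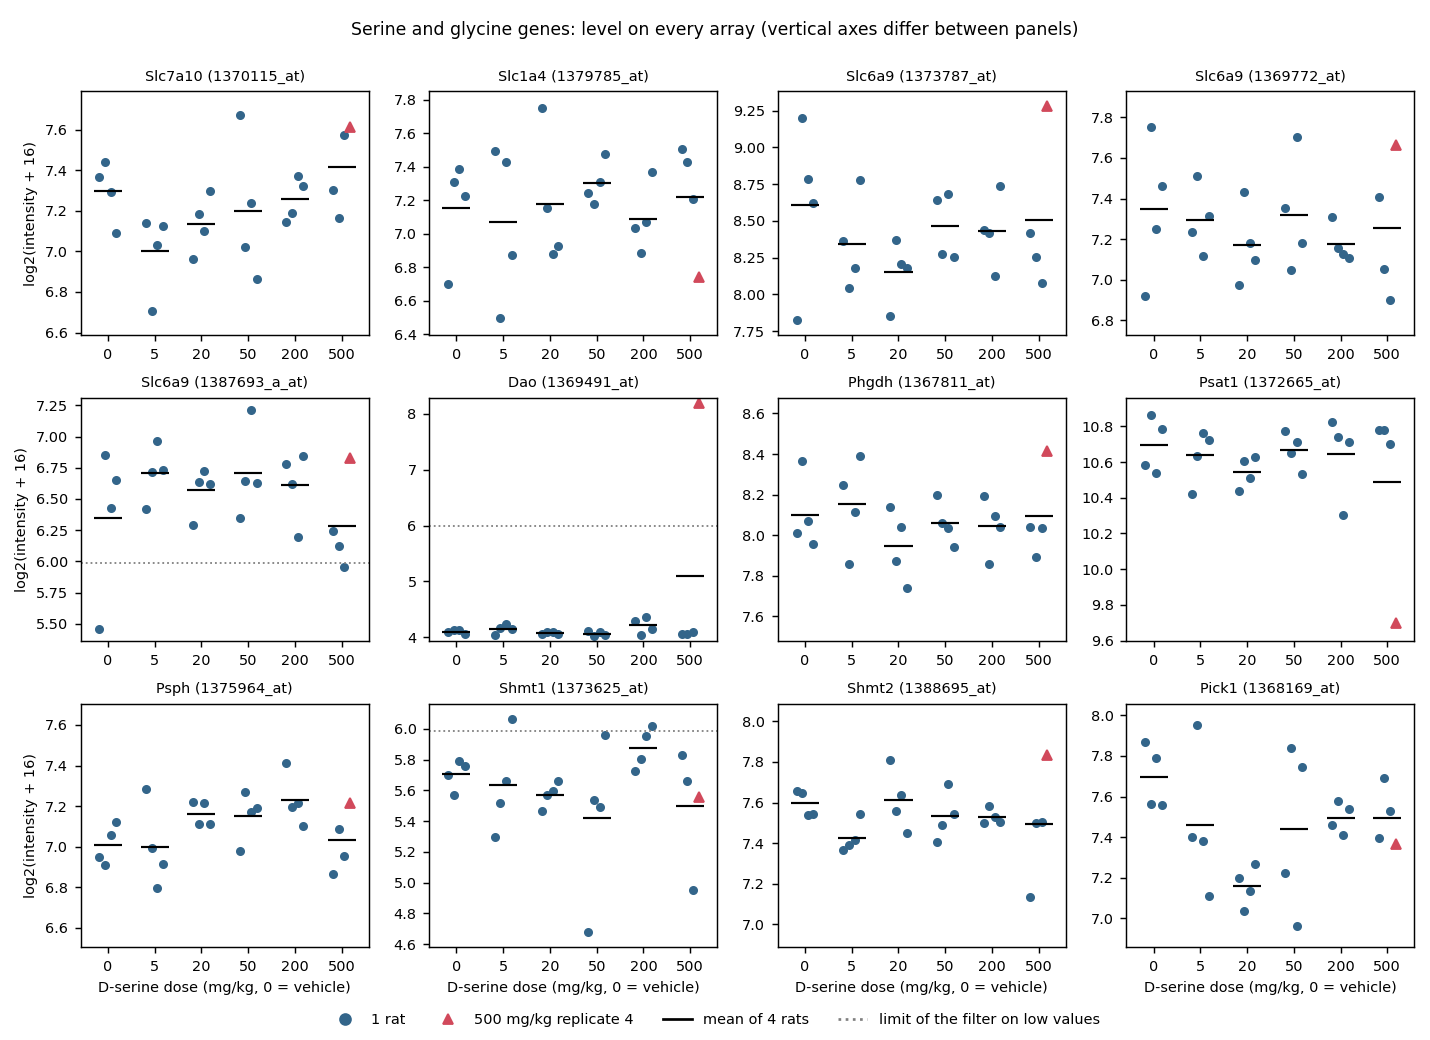
Level of each of the 12 probe sets (log2 of quantile-normalised intensity plus 16, vertical axis) in each of the 24 rats, by dose from vehicle to 500 mg/kg, with the group means. Pick1 at 20 mg/kg lies below vehicle without overlap, and 500 mg/kg replicate 4 stands apart for Dao (8.19) and Psat1 (9.70).

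Among the carriers, Slc7a10 encodes an exchanger of small neutral amino acids that takes up and releases D-serine. It read 7.36, 7.44, 7.29 and 7.09 in vehicle rats, 7.14, 6.70, 7.03 and 7.13 at 5 mg/kg, and 6.96, 7.18, 7.10 and 7.30 at 20 mg/kg. The 50 mg/kg rats read 7.67, 7.02, 7.24 and 6.87, the 200 mg/kg rats 7.14, 7.19, 7.37 and 7.32, and the 500 mg/kg rats 7.30, 7.16, 7.57 and 7.61. The lowest group was 5 mg/kg, of which 2 rats reached the range of the vehicle rats, and the 50 mg/kg group held both the highest rat of all and one of the lowest. The difference from vehicle at 5 mg/kg was -0.29 ± 0.15 (SE, 95% interval -0.60 to 0.01, limma adjusted p = 0.278), and at 500 mg/kg it was 0.12 ± 0.15 (adjusted p = 0.872). Between the 3 lower and the 2 higher doses it was -0.22 ± 0.09 (adjusted p = 0.136). That last difference passed the test in 1 fit, the one without 50 mg/kg replicate 1, at -0.28 (adjusted p = 0.0305), and without 500 mg/kg replicate 4 it was -0.19 (adjusted p = 0.242).

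Slc1a4 encodes a neutral amino acid exchanger that also carries serine. With all arrays its group means lay between 7.07 ± 0.47 at 5 mg/kg and 7.30 ± 0.13 at 50 mg/kg (SD, n = 4 each), and single rats between 6.50 and 7.75. The lowest rat was in the 5 mg/kg group and the highest in the 20 mg/kg group, so the whole range was found among the lower doses. The largest difference from vehicle was then 0.15 ± 0.22 (SE, 95% interval -0.31 to 0.60, adjusted p = 0.864), at 50 mg/kg. Without 500 mg/kg replicate 4 it was at 500 mg/kg, 0.22 ± 0.22 (95% interval -0.23 to 0.67, adjusted p = 0.927), against 0.07 ± 0.22 with that array (adjusted p = 0.960).

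Slc6a9 encodes a sodium-dependent transporter that clears glycine from around excitatory synapses. The probe set that represents it, 1373787_at, read 7.82, 9.20, 8.78 and 8.62 in vehicle rats, 8.37, 8.04, 8.18 and 8.78 at 5 mg/kg, and 7.85, 8.37, 8.20 and 8.18 at 20 mg/kg. The 50 mg/kg rats read 8.64, 8.27, 8.68 and 8.25, the 200 mg/kg rats 8.44, 8.42, 8.12 and 8.74, and the 500 mg/kg rats 8.42, 8.25, 8.08 and 9.28. Both the lowest rat of all and the highest apart from 500 mg/kg replicate 4 were vehicle rats. The difference at 20 mg/kg was -0.46 ± 0.25 (SE, 95% interval -0.97 to 0.06, adjusted p = 0.302), and without 500 mg/kg replicate 4 it was -0.46 ± 0.21 (adjusted p = 0.166). The probe sets of Slc6a9 did not give 1 direction. At 5 mg/kg 1373787_at differed from vehicle by -0.27 ± 0.25, 1369772_at by -0.05 ± 0.17 and 1387693_a_at by 0.36 ± 0.25, and none of the 3 passed. The 500 mg/kg mean of 1373787_at was 8.51 with all arrays and 8.25 without replicate 4, against 8.61 in vehicle rats. For 1369772_at these means were 7.26, 7.12 and 7.35, and for 1387693_a_at they were 6.28, 6.10 and 6.35.

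Dao encodes the enzyme that oxidises D-serine, and its probe set was close to 0 on the arrays of forebrain. On 23 arrays its level lay between 4.03 and 4.36, from deposited intensities of 0.3 to 4.3, and in 500 mg/kg replicate 4 it was 8.19, from a deposited intensity of 266.8. The other 3 rats at 500 mg/kg read 4.06, 4.06 and 4.10, inside the range of the vehicle rats, 4.05 to 4.13. The deposited intensities of those 3 rats were 0.5 to 0.9, where the level is set by the 16 added before taking logs, so the gap to replicate 4 has no size of its own. The cerebellar markers Gabra6, Pcp2 and Car8 read 10.73, 12.34 and 11.81 on the same array, and at most 5.98, 6.86 and 6.74 on the other 23. Not every marker of that list stood so far apart on this array. Barhl2 and Itpr1 read 6.55 and 12.03, against at most 6.23 and 11.33, and Zic2 read 7.64, below its highest value of 7.70 elsewhere. Fitted without a filter, the 500 mg/kg group differed from vehicle by 1.0 ± 0.54 for Dao (SE, adjusted p = 0.798), a value that rests on this array, and the other doses differed by -0.03 to 0.11. From so low a signal a fall of Dao in forebrain could not be detected.

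Of the 3 enzymes that build L-serine, Phgdh encodes the dehydrogenase of the first step. Its group means lay between 7.95 ± 0.18 at 20 mg/kg and 8.15 ± 0.23 at 5 mg/kg (SD, n = 4 each), and single rats between 7.74 and 8.42. The largest difference from vehicle was at 20 mg/kg, -0.15 ± 0.13 (SE, 95% interval -0.41 to 0.11, adjusted p = 0.540). RefSeq lists rat pseudogenes of Phgdh, Psat1 and Shmt2, whose transcripts, if any, could add to these probe sets.

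Psat1 encodes the aminotransferase of the next step. It read 10.58, 10.86, 10.54 and 10.79 in vehicle rats, 10.42, 10.64, 10.76 and 10.72 at 5 mg/kg, and 10.44, 10.60, 10.51 and 10.63 at 20 mg/kg. The 50 mg/kg rats read 10.78, 10.65, 10.71 and 10.53, the 200 mg/kg rats 10.82, 10.74, 10.30 and 10.71, and the 500 mg/kg rats 10.78, 10.78, 10.70 and 9.70. Apart from the last value, which is that of 500 mg/kg replicate 4, every group overlapped the vehicle rats. The difference at 500 mg/kg was -0.20 ± 0.17 with all arrays (SE, adjusted p = 0.803) and 0.06 ± 0.11 without that array (95% interval -0.16 to 0.28, adjusted p = 0.966), so its sign was set by 1 array. At 20 mg/kg it was -0.15 ± 0.17 with all arrays (adjusted p = 0.678) and -0.15 ± 0.10 without that array (adjusted p = 0.362).

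Psph encodes the phosphatase of the last step. It read 6.95, 6.91, 7.06 and 7.12 in vehicle rats, and 7.41, 7.20, 7.21 and 7.10 at 200 mg/kg. At that dose 3 of the 4 rats were above every vehicle rat. The difference was 0.22 ± 0.10 (SE, 95% interval 0.004 to 0.44), with an unadjusted limma p of 0.0461 and an adjusted p of 0.935, at a dose where 5.3% of all probe sets had an unadjusted p under 0.05. At 20 and 50 mg/kg it was 0.15 ± 0.10 and 0.14 ± 0.10, and at 5 and 500 mg/kg it was -0.01 ± 0.10 and 0.02 ± 0.10, so the differences did not follow the dose.

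Shmt1 and Shmt2 encode the cytosolic and the mitochondrial serine hydroxymethyltransferase, which turn serine into glycine and pass a carbon to folate. The Shmt1 probe set had a mean of 5.62, below the limit of 5.98 for testing, and single rats lay between 4.68 and 6.06. Without a filter its differences from vehicle ranged from -0.29 ± 0.22 at 50 mg/kg to 0.17 ± 0.22 at 200 mg/kg (SE, adjusted p = 0.721 and 1). Shmt2 read 7.36, 7.39, 7.41 and 7.54 at 5 mg/kg, against 7.65, 7.65, 7.54 and 7.55 in vehicle rats. All but the highest of the 5 mg/kg rats were below every vehicle rat, and the difference was -0.17 ± 0.11 (SE, 95% interval -0.39 to 0.06, adjusted p = 0.438). At 500 mg/kg Shmt2 differed by -0.10 ± 0.11 with all arrays (adjusted p = 0.851) and by -0.22 ± 0.10 without replicate 4 (adjusted p = 0.803).

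Pick1 encodes a membrane scaffold with a PDZ domain that binds serine racemase and subunits of AMPA receptors. It read 7.20, 7.04, 7.13 and 7.27 at 20 mg/kg, against 7.87, 7.56, 7.79 and 7.56 in vehicle rats. All 4 rats at 20 mg/kg were below all 4 vehicle rats. The difference was -0.54 ± 0.17 (SE, 95% interval -0.88 to -0.19, limma adjusted p = 0.0468), that is 0.69 times the vehicle level, in a comparison in which 3.23% of all probe sets were called lower. Pick1 therefore fell at 20 mg/kg by this test, close to its threshold. The call was lost without any one of the 4 vehicle arrays, at adjusted p values from 0.0587 to 0.133, and without any one of the 4 arrays at 20 mg/kg, at 0.0579 to 0.126. With the Gapdh ratio as a covariate the difference was -0.68 and did not pass (adjusted p = 0.774), in a fit that called 0 of all probe sets at that dose, and on the values as deposited it was -0.15 (adjusted p = 0.506), where the median of all probe sets had moved by 0.37.

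At the other doses Pick1 did not pass. The 5 mg/kg rats read 7.40, 7.95, 7.38 and 7.11, the 50 mg/kg rats 7.22, 7.84, 6.96 and 7.74, the 200 mg/kg rats 7.46, 7.58, 7.41 and 7.54, and the 500 mg/kg rats 7.40, 7.69, 7.53 and 7.36. Its lowest rat of all, at 6.96, was in the 50 mg/kg group, and its highest, at 7.95, in the 5 mg/kg group. The differences from vehicle were -0.23 ± 0.17, -0.25 ± 0.17, -0.20 ± 0.17 and -0.20 ± 0.17 at 5, 50, 200 and 500 mg/kg (SE, adjusted p = 0.491, 0.578, 0.998 and 0.806). All 5 differences are set against the same 4 vehicle rats. The difference between the lower and the higher doses, which leaves those rats out, was -0.14 ± 0.11 (adjusted p = 0.433).

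**Figure D2:**
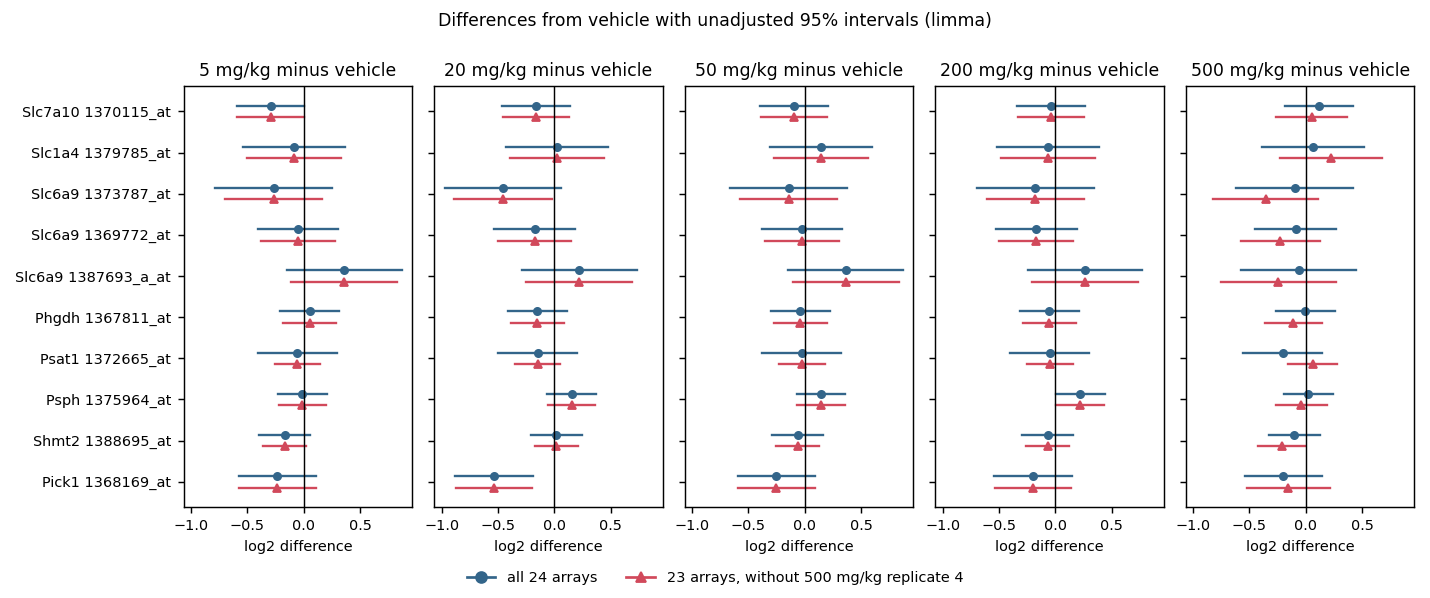
Log2 difference from vehicle (horizontal axis) of each of the 10 tested probe sets at each dose, with 95% intervals from limma. All 50 intervals lie between -0.97 and 0.87, and 2 of them leave out 0, that of Pick1 at 20 mg/kg and that of Psph at 200 mg/kg (5 without 500 mg/kg replicate 4).

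The wider pathway was taken in 5 lists of 77 genes, with 1 probe set standing for each gene. In the list of other serine and glycine carriers, 13 of 17 genes were measured and 0 passed in any comparison of all 24 arrays. Slc38a1, a glutamine carrier of neurons that also takes serine, passed at 20 mg/kg without 500 mg/kg replicate 4, at -0.25 ± 0.08 (adjusted p = 0.0425, with 5.41% of all probe sets called lower), and did not with it (adjusted p = 0.103). On the values as deposited its difference was 0.21 (adjusted p = 0.258), and its other probe set differed by 0.00. Among 8 measured of 16 genes of the folate cycle and 13 of 20 enzymes that use serine or glycine, 0 passed in any comparison. The median differences of these 3 lists at 20 mg/kg were -0.01, -0.06 and -0.02, against a median of 0.00 over all probe sets.

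Of the 9 genes of D-serine synthesis and glycine cleavage, 4 were measured and 1 passed. Srr, which encodes serine racemase itself, had no probe set of its own under this annotation and was not analysed here. Dld, which encodes the dehydrogenase subunit that the glycine cleavage system shares with mitochondrial complexes such as pyruvate dehydrogenase, read 9.56, 9.48, 9.52 and 9.45 at 5 mg/kg, against 9.26, 9.25, 9.25 and 9.22 in vehicle rats. At 20 mg/kg it read 9.55, 9.50, 9.66 and 9.47. Neither dose overlapped vehicle, and Dld rose at both. The rise was 0.26 ± 0.07 at 5 mg/kg (SE, adjusted p = 0.0292), where 3.79% of all probe sets were called higher. It was 0.30 ± 0.07 at 20 mg/kg (adjusted p = 0.00758), where 5.25% were. It also passed the test of any difference among the groups (adjusted p = 0.0380) and was higher at the lower than at the higher doses by 0.15 ± 0.04 (adjusted p = 0.0287), in a comparison in which 6.05% of all probe sets were called higher. At the higher doses, 200 and 500 mg/kg, its difference from vehicle was 0.10 ± 0.07 and 0.08 ± 0.07 (adjusted p = 0.989 and 0.801). The doses at which Dld was higher are among those with the low Gapdh ratio. With that ratio as a covariate Dld differed by 0.11 ± 0.13 at 5 mg/kg and 0.15 ± 0.13 at 20 mg/kg (adjusted p = 0.859 and 0.821). The ratio at both doses did not overlap that in vehicle rats, so this fit cannot tell the ratio from the dose. Leaving out 1 array at a time, the call at 20 mg/kg held in all 24 fits. That at 5 mg/kg was lost without any one of the 4 vehicle arrays or without 5 mg/kg replicate 1, 2 or 3, at adjusted p from 0.0515 to 0.0765.

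Of the 15 genes of the amino acid response driven by ATF4, a factor that also induces the serine synthesis enzymes, 13 were measured. Aars1, which encodes alanyl-tRNA synthetase, read from 9.90 to 10.28 at 20 mg/kg, against 9.56, 9.94, 9.68 and 9.64 in vehicle rats. The groups overlapped by 1 vehicle rat, and Aars1 rose by 0.35 ± 0.10 (SE, adjusted p = 0.0265), as 1 of 13 measured genes of the list, in a comparison in which 5.25% of all probe sets were called higher. It was also higher at the lower than at the higher doses by 0.21 ± 0.06 (adjusted p = 0.0339), where 6.05% of all were called higher. In the test of any difference among the groups it passed without 500 mg/kg replicate 4 (adjusted p = 0.0358, where 7.48% of all did) and not with it (adjusted p = 0.0989). With the Gapdh ratio as a covariate Aars1 differed by 0.12 ± 0.18 at 20 mg/kg (adjusted p = 0.911), in a fit with the limit given for Dld. The call at 20 mg/kg was lost without vehicle replicate 1, 3 or 4 and without 20 mg/kg replicate 1 or 2, at adjusted p from 0.0529 to 0.115. Sars1, which encodes seryl-tRNA synthetase, differed at 5 mg/kg by 0.32 ± 0.10, which passed without 500 mg/kg replicate 4 (adjusted p = 0.0414, with 5.57% of all probe sets called higher) and not with it (adjusted p = 0.0603). At 20 mg/kg Sars1 differed by 0.27 (adjusted p = 0.0905), and by 0.35 without 20 mg/kg replicate 4 (adjusted p = 0.0375). The other 11 measured genes of the list passed in no comparison, and its median difference at 20 mg/kg was 0.07. The promoter match of Pick1 and Slc1a4 to the ATF4 letters describes letters only, and a link to their levels was not tested. At 20 mg/kg Pick1 was called lower, close to the threshold, and Slc1a4 differed by 0.02 ± 0.22.

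Single rats differed in tissue makeup. After adjustment, Psat1 varied with marker levels by Pearson's r and by Spearman's rho, and Slc6a9 by Pearson's r only. The relations were looked at after the values were seen, over the 23 arrays without 500 mg/kg replicate 4, as 80 pairs of 10 probe sets and 8 marker lists. The mean level of 12 oligodendrocyte markers lay between 8.86 in 20 mg/kg replicate 1 and 10.43 in vehicle replicate 2. Its group means were 9.87 ± 0.58 in vehicle rats and 9.46 ± 0.13, 9.37 ± 0.34, 9.83 ± 0.32, 9.81 ± 0.49 and 9.74 ± 0.21 at 5, 20, 50, 200 and 500 mg/kg (SD, n = 4 each). No dose passed against vehicle (exact permutation test, adjusted p from 0.857 to 0.914). With this spread and 4 arrays a group, a difference could have been missed. Markers of astrocytes, the cells best known for L-serine synthesis, had group means from 9.95 to 10.05. With them Pearson's r was 0.07 for Phgdh, 0.37 for Psat1 and -0.54 for Psph (permutation test over 23 arrays, adjusted p = 0.893, 0.302 and 0.0618). Spearman's rho was -0.02, 0.26 and -0.58 (adjusted p = 0.957, 0.631 and 0.0918), so none passed.

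Psat1 was higher in rats with more oligodendrocyte marker signal. Pearson's r was 0.74 and Spearman's rho 0.69 over 23 arrays (permutation test, adjusted p = 0.0088 and 0.014 over the 80 relations). Without vehicle replicates 2 and 4, the arrays farthest from the median of the markers, r was 0.69. It was 0.53 over the 12 arrays at 5, 20 and 50 mg/kg, 0.84 over the other 11, and 0.76 with the group means taken out. With forebrain neuron markers Psat1 had an r of -0.55 (adjusted p = 0.0597) and a rho of -0.69 (adjusted p = 0.014), and r was -0.52 without vehicle replicate 2 and 50 mg/kg replicate 3. The relation with oligodendrocyte markers was the only one of the 80 relations with both adjusted p values under 0.05.

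The Slc6a9 probe sets also went with the oligodendrocyte markers, at r of 0.67, 0.63 and 0.54 for 1373787_at, 1369772_at and 1387693_a_at (permutation test over 23 arrays, adjusted p = 0.0136, 0.0165 and 0.0597). Spearman's rho was 0.53, 0.49 and 0.52 (adjusted p = 0.134, 0.186 and 0.134). Without vehicle replicates 2 and 4, r was 0.55, 0.48 and 0.53. Within the arrays at 5, 20 and 50 mg/kg it was 0.51, 0.62 and 0.78, and within the other 11 it was 0.74, 0.75 and 0.78. Slc6a9 also varied with thalamic markers, at r of 0.63 for 1373787_at and 0.66 for 1369772_at (adjusted p = 0.0165 for both), but without vehicle replicate 2 and 50 mg/kg replicate 3 these were 0.35 and 0.03, so that relation rests on those arrays. Slc6a9 ran against the forebrain neuron markers, at r of -0.69 for 1373787_at and -0.62 for 1369772_at (adjusted p = 0.0136 and 0.0178), with rho of -0.55 and -0.39 (adjusted p = 0.119 and 0.385), and without the same arrays r was -0.46 and -0.21. With choroid plexus markers 1373787_at had an r of 0.64 (adjusted p = 0.0165) and a rho of 0.61 (adjusted p = 0.0744), and r was 0.47 without those arrays.

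**Figure D3:**
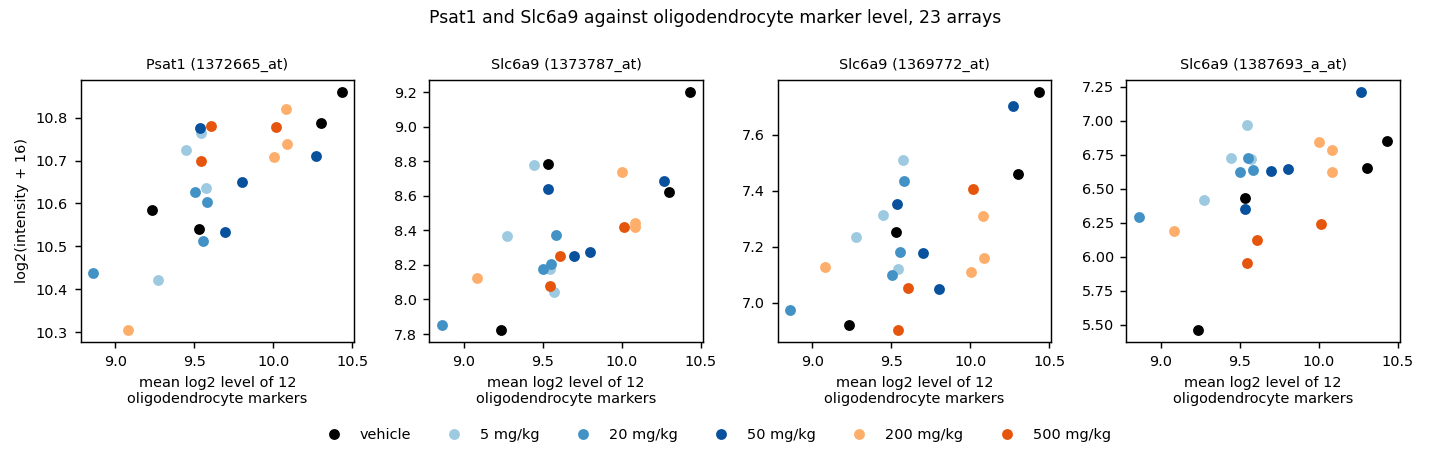
Level of Psat1 and of Slc6a9 (vertical axes, log2 of normalised intensity plus 16) against the mean level of 12 oligodendrocyte markers (horizontal axis) in single rats, coloured by dose. Both rise with the markers over 23 arrays, with r of 0.74 for Psat1 and 0.67 for Slc6a9 probe set 1373787_at.

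The genes whose pattern over 23 arrays was most like that of a member were searched among 10204 genes, as a description. For Psat1 they were Mbp (r = 0.84), which encodes myelin basic protein and is one of the oligodendrocyte markers, Plekhb1 (0.82) and Dusp15 (0.82). With all 24 arrays they were Ptpn5 (0.92), Kcnip2 (0.90) and Hsph1 (0.89), so the nearest genes changed with 1 array. For Slc6a9 they were Sox10 (0.84), a transcription factor of the oligodendrocyte lineage, Fnta (0.81) and Chn2 (0.81). For Pick1 they were Sobp (0.81), Mapt (0.75), which encodes the tau protein of axons, and Fbxo41 (0.71). For Phgdh they were Calb2 (0.73), the gene of the calcium-binding protein calretinin and one of the thalamic markers, Rnd3 (0.71) and Isoc1 (0.71). The r of Phgdh with the thalamic marker list as a whole was 0.38. For Slc7a10 they were Unc45a (0.73), Ppp1r9b (0.72) and Rusf1 (0.71), and for Slc1a4 Mrpl57 (0.72), Minar2 (0.66) and Mrpl1 (0.65). For Psph they were Syt15, Arhgef17 and Sypl2 (0.64, 0.64 and 0.63), and for Shmt2 Lgals3bp, Tmem248 and Gpr180 (0.71, 0.68 and 0.66). The arrays share their normalisation and tissue makeup, so these values carry no test.

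The 500 mg/kg replicate 4 array shows how the members read in a sample with cerebellar markers, from 1 animal. Of the 12 probe sets, 5 lay outside the range of the other 23 arrays. Slc6a9 1373787_at at 9.28, Phgdh at 8.42, Shmt2 at 7.84 and Dao at 8.19 were above it, and Psat1 at 9.70 was below it. On that array 42.5% of all tested probe sets lay outside the range of the other 23. The 12 include the untested probe sets of Dao and Shmt1, so these shares cover unlike sets. The share among the members is not read as a feature of these genes.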

How the data were processed

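Total RNA of 24 rats was measured on 1 Affymetrix rat array each. The deposited table gives intensity on a linear scale. These signals were made with the GCOS software, per the submitters' processing notes, with a version and scaling that the sources used here do not give. The labels name a different animal for each array. Scan dates were not used here, so a batch was not tested. Since array medians spanned 0.73 on the log2 scale, arrays were quantile normalized before taking log2(intensity + 16). Testing left out 57 controls and the dimmest 40% by mean, so that 18625 probe sets remained. Names follow the platform annotation, updated through the RefSeq gene table, and only probe sets with a single symbol were named.

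One model of 6 group means over all arrays was fitted in limma 3.58.1 (R 4.3.3) with an intensity trend and Benjamini-Hochberg adjustment over all probe sets, and checked on simulated data. Slope and F tests used the same arrays. RNA ratios and marker levels, the mean of a list's probe sets, were compared by exact permutation tests, and relations by 100000 permutations in Python 3.11.15. The text names every member whatever its values, the pathway genes that passed in at least 1 comparison (at most 4 a list), Srr, and the 3 genes most like each tested member over 23 arrays, with those over all 24 given for Psat1 only. Gapdh, beta-actin and hexokinase are given as controls, and the single marker genes were chosen after their values were seen. The members and the gene lists were chosen with earlier results of these data known. Alternatives changed the filter (none or 60%), the normalization, the pseudocount (1 or 64), the moderation, array weights, the probe sets per gene, the dose scale and the arrays in the fit, or took the Gapdh ratio as a covariate. The number of arrays limits the precision.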

Additional observations from a re-analysis of the deposited data

Results flagged for a closer look

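In 2 of 72 groups of 4 arrays tested, 1 array lay far from the other 3 by Dixon's criterion at the 95% level, where chance gives 3.6. Both were 500 mg/kg replicate 4, the array with high cerebellar markers. Dao read 8.19 there, against 4.06, 4.06 and 4.10 in the other 3 rats of the group. Psat1 read 9.70 there, against 10.70 to 10.78 in the other 3.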

How the results depend on the processing

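The count of 1 member called at 20 mg/kg, Pick1, became 0 with no filter (adjusted p = 0.0710), with median centring (-0.47, adjusted p = 0.0962), with 1 probe set per gene (adjusted p = 0.0750) and with a term for the Gapdh ratio, over all arrays (-0.68, adjusted p = 0.774) or without 500 mg/kg replicate 4 (-0.62, adjusted p = 0.984). Leaving out 1 array at a time gave 0 to 1 calls, with Pick1 called in 8 of 24 such fits, at -0.58 to -0.48 and adjusted p from 0.0253 to 0.133. Besides the vehicle and 20 mg/kg arrays, the call was lost without any 200 mg/kg array (0.0528 to 0.0553), without 5 mg/kg replicate 1 or 3 (0.0543 and 0.0555) and without 500 mg/kg replicate 1 or 3 (0.0526 and 0.0542). It held in 8 of the other 14 settings. On the values as deposited, where the median over all probe sets moved by 0.37 at 20 mg/kg, the 1 call was Psph (0.51, adjusted p = 0.0251) in place of Pick1. On that scale 4 member probe sets, of 3 genes, were called between the lower and the higher doses, where the median moved by 0.28, in place of 0: Slc6a9 1369772_at (0.33) and 1387693_a_at (0.49), Psat1 (0.35) and Shmt2 (0.30). The share of all probe sets called on that scale is not given here, so these counts are not read as a result about the members. On the normalized values, leaving out 1 array at a time gave 0 to 1 calls between the lower and the higher doses. Every other count of members called remained at 0 in each setting run. For the pathway genes named, the same settings were run after the data were seen. With the Gapdh ratio as a covariate and without 500 mg/kg replicate 4, Dld at 5 mg/kg (-0.0023), Aars1 at 20 mg/kg (-0.085) and Aars1 at the lower against the higher doses (-0.025) turned sign and did not pass, in fits that called 0 of all probe sets at 5 and 20 mg/kg. The lower against higher dose calls were lost in 5 of 24 fits for Dld and 9 of 24 for Aars1 that left out 1 array, with median centring (0.18 for Dld and 0.23 for Aars1) and with a covariate term for the Gapdh ratio (0.05 and 0.06, adjusted p = 0.948 and 0.959), and for Aars1 also with 1 probe set per gene (adjusted p = 0.0512). No paired analysis was possible because each array came from a different animal and the replicate numbers only name arrays. With 4 arrays a group, differences under about the intervals given could not be detected, and a fall of Dao could not be read.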
